A study of Mus musculus with 6 samples.

Results

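The genes described here are the Runx transcription factors of the mouse ovary, Runx1, Runx2 and Runx3, their shared partner Cbfb, and Runx2os1, a transcript annotated on the strand opposite to Runx2. These 5 genes, of 55536 in the count table, were taken by symbol. Runx2os1 was picked because it was higher after M1, so its values are given as a description with no test. All 5 genes passed the filter on low counts. M1 is a compound that promotes the fusion of mitochondria. Female ICR mice, 10 weeks old by the sample labels, received M1 at 10 mg/kg by intraperitoneal injection at 9 h and 16 h of proestrus (M1 group, n = 3), or belonged to the Control group (n = 3), whose injection the labels do not describe. The ovaries of both groups were taken at 20 h on the day of proestrus, 11 h from the first M1 injection and 4 h from the second. The sample descriptions call every M1 sample cycle disrupted and every Control sample normal. State of the cycle and M1 treatment thus cannot be told apart in these libraries. The 2 ovaries of each mouse were homogenized together, and polyA RNA of each mouse gave 1 library.

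Runx factors are DNA-binding proteins that share the Runt domain, and they bind short sequences of the form AACCACA. Cbfb does not bind DNA itself, and as the common partner subunit it strengthens the binding of each of the 3 factors. Runx2 is best known as the master factor of bone formation, Runx1 of blood cell formation, and Runx3 of T cells and sensory neurons. In the rodent ovary, Runx1 and Runx2 are known as factors that the LH surge induces in granulosa cells, and Runx2 stays on as these cells become luteal. An antisense transcript is read from the opposite DNA strand of another gene. Some antisense transcripts affect their neighbour and many have no known role. No role of Runx2os1 is given here.

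Runx2os1 (ENSMUSG00000073394) lies at chr17:44735845-44737612 of GRCm38 on the plus strand, inside the Runx2 gene body (ENSMUSG00000039153, chr17:44495987-44814797, minus strand). GENCODE vM21 gives Runx2os1 1 transcript with 2 exons and 792 exonic bases. Exon 1 (chr17:44735845-44736363, 519 bases) lies wholly within untranslated Runx2 exon sequence, taken over the 2 Runx2 transcripts that reach it. One of them, Runx2-212, starts inside exon 1 (at 44736176) and covers only a part of it. Exon 2 (chr17:44737340-44737612, 273 bases) lies outside every Runx2 exon. Of the 13 Runx2 transcripts, 7 start at the distal promoter, and exon 2 falls in an intron of those. The other 6 start more than 70 kb downstream, past exon 2 in the direction of Runx2 transcription. The exons of both genes are drawn in the map of the locus.

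**Figure D1:**
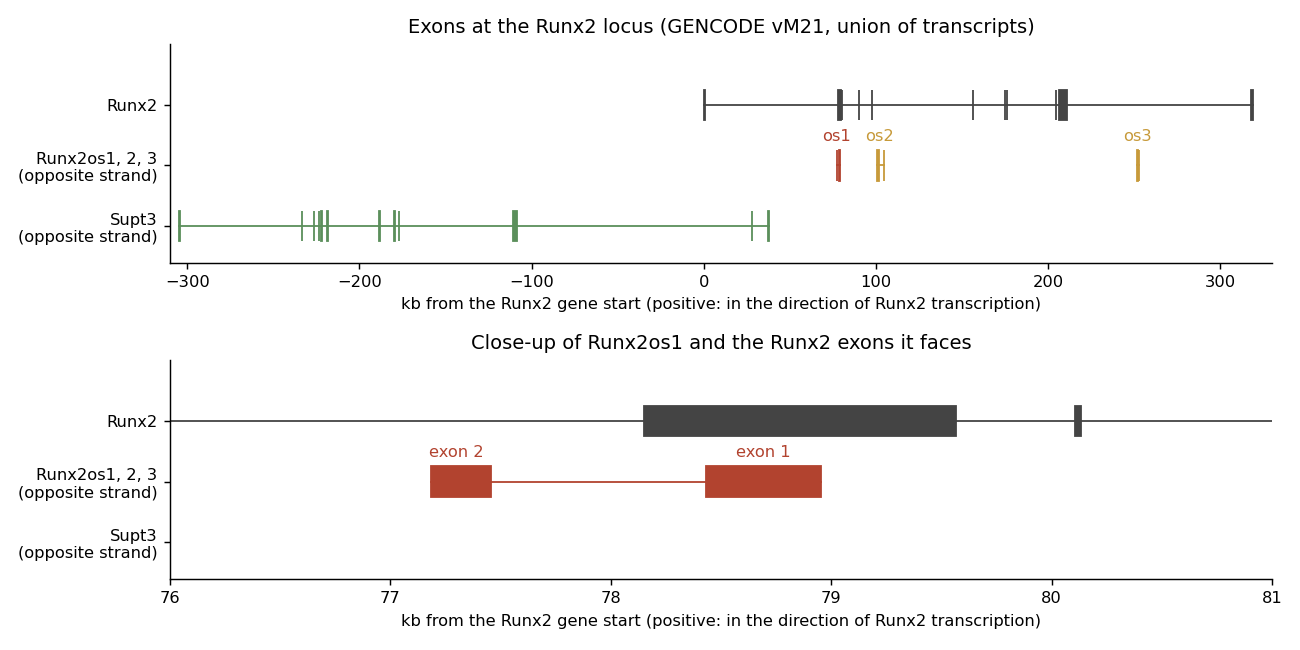
Exons of Runx2, Runx2os1, Runx2os2, Runx2os3 and Supt3 (filled boxes, union of annotated transcripts) against the distance from the Runx2 gene start in kb, for the whole locus (top) and around Runx2os1 (bottom). Exon 1 of Runx2os1 (519 bases) lies inside a Runx2 exon and exon 2 (273 bases) does not, while Supt3 shares 0 exonic bases with Runx2.

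How the reads were counted decides which part of Runx2os1 could be seen. Whether strand was used is not given in the sources used here, so it was read from the table. Of the antisense genes, 50 lie wholly inside exons of opposite-strand genes that had at least 1000 counts, and 0 of these 50 had a count in any library. Among antisense genes only partly inside such exons, 872 of 936 (93.2%) had a count, and among those with no overlap 906 of 1194 (75.9%) did. The table thus behaved as one counted without strand, in which a read over exons of 2 genes was given to neither. Exon 1, which holds 65.5% of the exonic bases of Runx2os1, could then add next to nothing to its count. The counts of Runx2os1 describe exon 2, and an RNA read there in the Runx2 direction cannot be told apart from the antisense RNA. Runx2 lost only the same stretch, which is 5.87% of its exonic bases. Exon 2 is shown because the whole signal described below comes from it, and it is written 5′ to 3′ on the Runx2os1 strand:

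Runx2os1 exon 2: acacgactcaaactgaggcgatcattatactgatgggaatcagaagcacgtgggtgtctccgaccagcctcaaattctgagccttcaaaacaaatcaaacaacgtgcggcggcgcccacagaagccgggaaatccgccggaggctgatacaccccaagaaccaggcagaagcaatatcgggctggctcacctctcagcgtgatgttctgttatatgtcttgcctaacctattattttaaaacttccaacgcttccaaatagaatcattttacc

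This stretch holds 48.4% G and C and has 0 matches to ACCACA, the core of the Runx site, on either strand.

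Runx2os1 was higher in each M1 mouse than in any Control mouse. It had 278, 204 and 242 counts in M1 mice 1 to 3, against 149, 62 and 93 counts in Control mice 1 to 3. Scaled to the library size these were 18.1, 14.3 and 19.1 CPM (counts relative to the TMM-normalized library size) in the M1 mice and 10.2, 3.96 and 5.05 CPM in the Control mice. The groups did not overlap, and Control mouse 1 stood between the other Control mice and the M1 mice. Counting error (exact Poisson, 95%) gave 12.4 to 16.4 CPM for M1 mouse 2, the lowest of its group, and 8.61 to 12.0 CPM for Control mouse 1, the highest of its group. Intervals of this kind cover counting error only. The means were 17.2 ± 2.56 CPM in M1 and 6.40 ± 3.32 CPM in Control (SD, n = 3 each), a log2 fold change of 1.43 or 2.69-fold. Without Control mouse 1 the log2 fold change was 1.92, and over the 6 fits that each left out 1 mouse it ran from 1.18 to 1.92. On the TPM scale, on which counts are also divided by gene length, Runx2os1 had 72.7, 50.1 and 73.8 TPM in the M1 mice, against 45.3, 16.4 and 21.8 TPM in the Control mice. The TPM values divide by all 792 bases although only exon 2 could be counted, so they understate its level beside other genes.

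**Figure D2:**
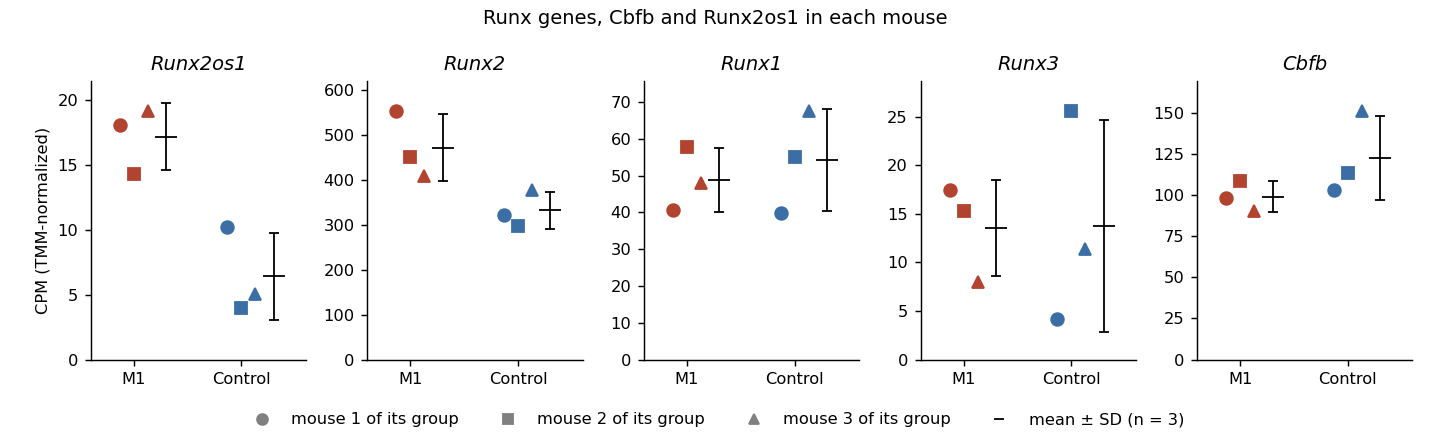
CPM (TMM-normalized, linear axes from 0) of the 5 genes in each of the 3 M1 mice (left of each panel) and the 3 Control mice (right), with mean ± SD. Runx2os1 and Runx2 have every M1 mouse above every Control mouse, and in Runx1, Runx3 and Cbfb the groups overlap.

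The background of such patterns in these libraries was broad. Of the 17499 tested genes, 11.4% had all M1 mice above all Control mice in CPM, 11.2% had them all below, and 152 had a log2 fold change at least as high as that of Runx2os1. As Runx2os1 was picked on this contrast, nothing is read from its place among them. Antisense genes as a class lay somewhat above the median of all tested genes. This was not particular to them, as the 581 tested genes of long intergenic noncoding RNA had a median log2 fold change of 0.12. The 608 antisense genes tested had a median log2 fold change of 0.17, against -0.0049 over all tested genes. Of them 14.0% had all M1 mice above and 4.77% had all M1 mice below the Control mice. Their counts took 0.274%, 0.279% and 0.307% of the libraries of M1 mice 1 to 3, against 0.292%, 0.239% and 0.240% of those of Control mice 1 to 3. Control mouse 1, the Control mouse with the most Runx2os1, was also the one with the largest share of antisense counts. The part of this share in the Runx2os1 values was not tested.

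Runx2 was the most abundant Runx factor of the ovary in both groups and was higher in the M1 mice, without passing the test over all genes. It had 554, 451 and 409 CPM in M1 mice 1 to 3, against 322, 297 and 378 CPM in Control mice 1 to 3. Every M1 mouse was above every Control mouse, with the lowest M1 mouse close to the highest Control mouse. The means were 471 ± 74.5 CPM in M1 and 332 ± 41.2 CPM in Control (SD, n = 3 each), a fold change of 1.42. The log2 fold change was 0.50 ± 0.17 (SE), with a 95% interval of 0.12 to 0.89. By edgeR's quasi-likelihood test, the Benjamini-Hochberg adjusted p over all tested genes was 0.234, and by DESeq2 it was 0.118. The unadjusted edgeR p was 0.0172, and 7.70% of all tested genes were higher in M1 at an unadjusted p under 0.05. Calls needed a fold change above 1.5 with an adjusted p under 0.05, and edgeR called 0.00571% of the tested genes higher (1 gene) and 0 lower. Unadjusted edgeR p-values under 0.05 were found for 1348 genes higher and 1605 lower, 16.9% of those tested, and DESeq2 called 426 of 15238 genes (2.80%). None of Runx1, Runx2, Runx3 and Cbfb was called by edgeR or DESeq2.

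On the TPM scale the Runx2 groups overlapped. The levels were 199.9, 141.8 and 141.4 TPM in the M1 mice, against 128.2, 110.4 and 146.3 TPM in the Control mice, so that M1 mice 2 and 3 lay under Control mouse 3. The log2 fold change on the log2(TPM + 1) scale was 0.32. That scale moved the median of all tested genes to -0.16, and relative to that median Runx2 was at 0.47. As these are whole ovaries, more cells with Runx2 and more Runx2 RNA per cell cannot be told apart, and this holds for each gene below.

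Runx2os1 was set against Runx2 within each mouse, since both are read from one locus. The ratio of Runx2os1 to Runx2 in TPM (0.1 added to each) was 0.364, 0.353 and 0.522 in M1 mice 1 to 3, against 0.354, 0.149 and 0.150 in Control mice 1 to 3. Control mouse 1 had the same ratio as M1 mice 1 and 2, while Control mice 2 and 3 had less than any M1 mouse. The mean difference of the log2 ratio was 1.03 (2.04-fold) and the groups overlapped. Counted per base of exon 2 alone, the density was 99.3%, 96.4% and 142.5% of the Runx2 exonic density in the M1 mice, and 96.4%, 40.6% and 40.8% in the Control mice. The Runx2 density was taken over its exonic bases outside Runx2os1. Exon 2 was covered about as densely as the Runx2 exons in M1 mice 1 and 2 and in Control mouse 1, more densely in M1 mouse 3 and less densely in Control mice 2 and 3.

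**Figure D3:**
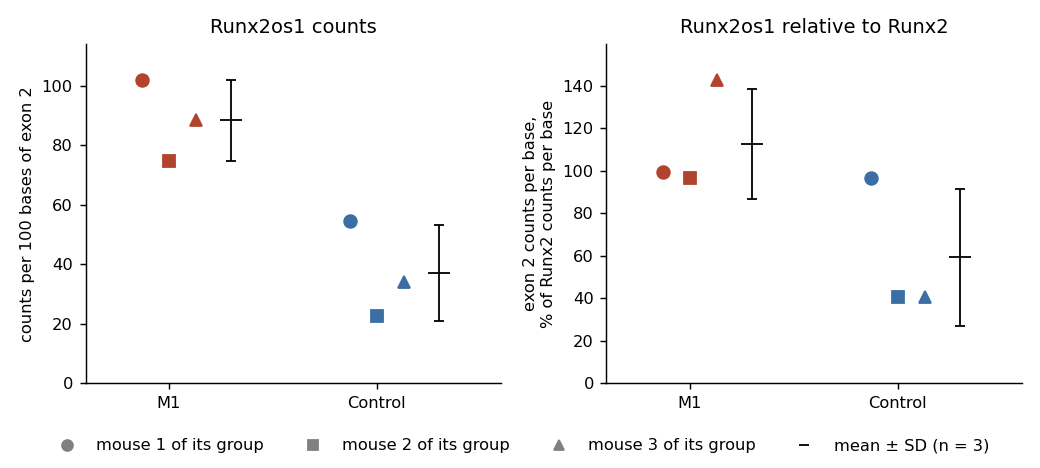
Runx2os1 counts per 100 bases of its exon 2 (left) and the same density as a percentage of the Runx2 counts per exonic base (right), for each mouse with mean ± SD, M1 left of Control. The M1 mice had 101.8, 74.7 and 88.6 counts per 100 bases and the Control mice 54.6, 22.7 and 34.1, and on the right Control mouse 1 lies at the level of M1 mice 1 and 2.

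The other antisense genes of the locus did not have this level. Runx2os2 (chr17:44710222-44713925, 818 exonic bases), which shares no exonic base with Runx2, had 1, 5 and 1 counts in M1 mice 1 to 3, against 1, 9 and 9 counts in Control mice 1 to 3. Its density was 0.119% to 0.788% of that of Runx2 exons in M1 mice and 0.216% to 1.97% in Control mice. Its density was lower than that on exon 2 of Runx2os1 in every library. It is another stretch of the Runx2 gene, and the part of RNA read in the Runx2 direction in the exon 2 counts was not tested. Runx2os3 had 0 counts in each M1 mouse and 0, 1 and 0 counts in Control mice 1 to 3.

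Runx1 did not differ beyond the spread between mice. It had 40.7, 57.8 and 48.0 CPM in M1 mice 1 to 3, against 39.9, 55.0 and 67.6 CPM in Control mice 1 to 3. The groups overlapped, with Control mouse 3 above every M1 mouse. The log2 fold change was -0.15 ± 0.21 (SE), with a 95% interval of -0.65 to 0.35 and an edgeR adjusted p of 0.756. The interval still holds a fall to 0.638 of the Control level and a rise to 1.27 of it. With an offset for gene length the value was 0.033, so that its direction is not set. Runx1 lies at chr16:92601466-92826149 on the minus strand.

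Runx3 varied more between mice of one group than between groups. It had 17.5, 15.2 and 7.99 CPM in M1 mice 1 to 3, against 4.17, 25.6 and 11.4 CPM in Control mice 1 to 3. Both the lowest and the highest value belonged to Control mice. The log2 fold change was -0.015 ± 0.59 (SE), with a 95% interval of -1.38 to 1.35 and an edgeR adjusted p of 0.992. A change of 2-fold in either direction lies within that interval, so these libraries do not exclude one of that size. Without Control mouse 2 the log2 fold change was 0.80, and its sign turned under other settings as well. Markers of T and NK cells, which carry Runx3, were near 0. The 6 markers summed to 2.73 to 4.27 CPM in M1 mice and 3.26 to 4.79 CPM in Control mice. Cd3g, Cd8a and Klrb1c were under the filter. Control mouse 2 had the highest Runx3 and the highest sum, whereas in the M1 group the highest sum was in mouse 3, which had the least Runx3. The part of these cells in the Runx3 values was not tested. Runx3 lies at chr4:135120652-135177990 on the plus strand.

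Cbfb, the shared partner, did not pass the test either. It had 98.2, 108.6 and 90.1 CPM in M1 mice 1 to 3, against 102.8, 113.2 and 151.1 CPM in Control mice 1 to 3. The groups overlapped, and Control mouse 3 was the highest of all. The log2 fold change was -0.31 ± 0.17 (SE), with a 95% interval of -0.69 to 0.082, an edgeR adjusted p of 0.381 and a DESeq2 adjusted p of 0.432. In TPM, Cbfb had 90.0, 86.7 and 79.1 in the M1 mice, against 104.0, 106.7 and 148.6 in the Control mice, with all M1 mice below. The log2 fold change on the log2(TPM + 1) scale was -0.47. That scale moved the median of all tested genes to -0.16, and relative to that median Cbfb was at -0.31. Cbfb lies at chr8:105170674-105217989 on the plus strand.

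**Figure D4:**
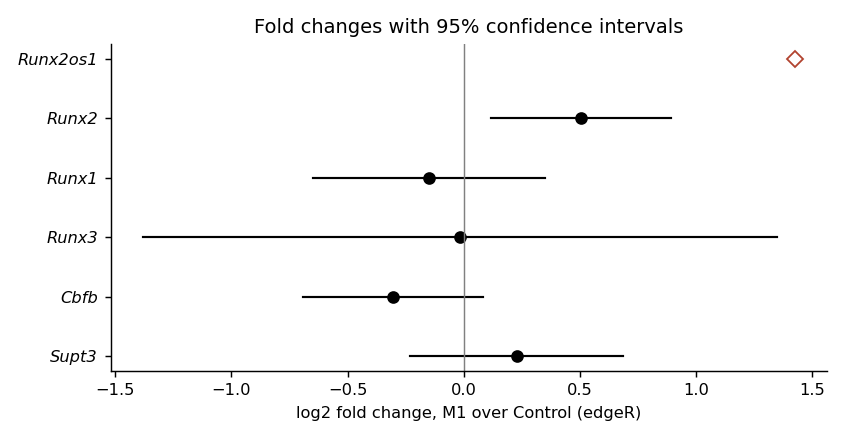
edgeR log2 fold changes of M1 over Control with 95% confidence intervals (lines) for Runx2, Runx1, Runx3, Cbfb and the overlapping gene Supt3, and of Runx2os1 as an open diamond with no interval because it was picked on this contrast. The interval of Runx2 (0.12 to 0.89) is the one that does not reach 0, and that of Runx3 (-1.38 to 1.35) is the widest.

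Since the 3 factors share 1 partner, their summed level was set against Cbfb within each mouse. In TPM, which can be compared between genes, the Runx genes together were at 2.46, 1.89 and 2.00 times the Cbfb level in M1 mice 1 to 3, against 1.37, 1.33 and 1.17 times in Control mice 1 to 3. All M1 mice were above all Control mice. The difference of the log2 ratio was 0.71 (1.63-fold), with a two-sided exact permutation p of 0.1, the smallest that 3 mice against 3 allow. Runx2 made up most of this sum, with 90.1%, 86.7% and 89.2% in the M1 mice and 89.8%, 77.6% and 84.4% in the Control mice. The ratio of Runx1 to Runx2 was 0.0545, 0.0949 and 0.0869 in the M1 mice, against 0.0918, 0.137 and 0.132 in the Control mice. The groups overlapped through Control mouse 1, and the exact permutation p was 0.2. These ratios were 2 tests of one family, and with Benjamini-Hochberg adjustment both p-values are 0.2.

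The levels per length were ordered within each library. Runx2 was above Runx1 in 6 of 6 libraries, by 7.36 to 18.5 times in TPM. Runx2 was above Cbfb in 5 of 6 libraries (0.984 to 2.22 times), so that these neighbours did not separate in Control mouse 3. The place of Runx2os1 depended on the length used. Over all its exonic bases it was under Cbfb in 6 of 6 libraries, with Cbfb at 1.07 to 6.81 times its level. Over exon 2 alone it had 210.9, 145.2 and 214.1 TPM in the M1 mice, against 131.3, 47.6 and 63.4 TPM in the Control mice, and Cbfb was then above it only in Control mice 2 and 3 (2 of 6 libraries). Runx2 too was then above it only in those 2 libraries, at 0.660 to 2.32 times its level. Runx1 and Runx3 did not separate, with Runx1 higher in 4 of 6 libraries and the ratio between 0.893 and 3.98.

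One window at a start of each Runx gene holds a pair of Runx sites, shown because the 3 factor genes share it. In RefSeq windows of GRCm38.p6, from 250 bases before to 50 bases after each start, the motif AACCACAGAACCACA (both strands searched) is found in 4 of 32851 windows (0.0122%). They belong to Runx1, Runx2, Runx3 and Gm16225, which was named after the search. The single motif AACCACA is in 5.27% of the windows. Each sequence is given 5′ to 3′ on the strand of its gene, with the pair of sites in capitals:

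Runx1, chr16:92826025-92826054, minus strand: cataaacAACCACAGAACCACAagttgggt
Runx2, chr17:44814583-44814612, minus strand: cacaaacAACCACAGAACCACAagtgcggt
Runx3, chr4:135120503-135120532, plus strand: gtccctcAACCACAGAACCACAaggccagg

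The first base of the pair lies at 28 in Runx1 and at 23 in Runx2, counted downstream from the start, and 135 bases upstream of it in Runx3. The window of Cbfb has 0 matches to AACCACA. RefSeq gives Runx1 and Runx3 a second start each, and the windows of those starts have 0 matches as well. A match is a description of letters.

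The neighbourhood of Runx2 was described to see whether the whole region moved. Supt3, which encodes a subunit of the SAGA coactivator complex and overlaps the distal start of Runx2 on the other strand, had 33.4, 24.3 and 35.8 CPM in M1 mice 1 to 3, against 32.0, 22.5 and 25.3 CPM in Control mice 1 to 3. Its groups overlapped, with a log2 fold change of 0.23 and an edgeR adjusted p of 0.584. Of the 43 other genes within 1000 kb of the Runx2 gene body, 38 had a count and 21 were tested. Their median log2 fold change was 0.0086, with 11 above and 10 below 0. None of the 21 had all M1 mice above all Control mice, against 11.4% of all tested genes. For 3 of them all M1 mice lay below, beside 11.2% of all tested genes. One of the 3 was Clic5, of the chloride intracellular channel family, with 7.34, 8.18 and 4.74 CPM in the M1 mice and 10.0, 17.9 and 13.3 CPM in the Control mice (log2 fold change -1.02, edgeR adjusted p of 0.208). The others were Cdc5l, a component of the spliceosome (-0.37), and Enpp4 (-0.51). Hsp90ab1, which encodes a cytosolic chaperone and had the most counts of the tested neighbours, had a log2 fold change of -0.11. The highest value of the tested neighbours was that of Gm17080, another antisense gene (log2 fold change 1.01, edgeR adjusted p of 0.296). Its groups overlapped, with 2.01, 2.24 and 1.03 CPM in the M1 mice and 0.957, 1.08 and 0.598 CPM in the Control mice. In Runx2 all M1 mice lay above all Control mice in CPM, as in 11.4% of all tested genes. Runx2os1 had the same pattern, but it was picked for its rise after M1, so nothing is read from this.

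Proteins that work with Runx factors were followed as a list of 25 co-regulators, all of them tested. Of these 11 had a positive and 14 a negative log2 fold change, with a median of -0.074 beside -0.0049 over all tested genes. None passed the edgeR test, and 3 were higher and 4 lower at an unadjusted p under 0.05, where 7.70% and 9.17% of all tested genes were. Groups did not overlap for 4 of the 25 genes that were higher in M1 and 5 that were lower, beside 11.4% and 11.2% of all tested genes. Aes, a short member of the Groucho family, was the one that DESeq2 called, where it called 1.30% of all its genes higher. It had 790.7, 910.1 and 798.7 CPM in M1 mice 1 to 3, against 521.8, 576.8 and 533.2 CPM in Control mice 1 to 3. Its log2 fold change was 0.62, with an adjusted p of 0.195 by edgeR and 0.00477 by DESeq2. Tle2, a full-length Groucho corepressor that binds the end of Runx proteins, had 405.4, 278.3 and 310.1 CPM in the M1 mice and 238.6, 217.3 and 230.2 CPM in the Control mice (log2 fold change 0.53). Tle1, Tle3, Tle4 and Tle6 of the same family had values of -0.26, 0.018, -0.33 and 0.044.

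Smad1, which carries BMP signals and binds Runx2, had 116.7, 130.2 and 158.2 CPM in the M1 mice and 97.0, 75.1 and 103.9 CPM in the Control mice (log2 fold change 0.55, edgeR adjusted p of 0.220). Kat6a, a histone acetyltransferase that acts with Runx1, was at 79.5, 73.0 and 70.8 CPM in the M1 mice, against 82.1, 125.2 and 136.0 CPM in the Control mice (log2 fold change -0.62). Cbfa2t2, a corepressor of the ETO family, was at 42.5, 45.2 and 36.9 CPM in the M1 mice, against 50.4, 61.8 and 59.7 CPM in the Control mice (-0.46). In Aes, Tle2 and Smad1 each M1 mouse was above each Control mouse, and in Kat6a and Cbfa2t2 each was below. Hipk2, a kinase, had a log2 fold change of -0.84 with overlapping groups, as Control mouse 1 (26.3 CPM) was at the M1 level of 22.9 to 26.6 CPM.

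Genes reported to depend on Runx1, Runx2 or Cbfb in rodent periovulatory or luteal cells were taken as a list of 14, of which 12 were tested. Their median log2 fold change was 0.26, with 7 positive and 5 negative. It ran from 0.032 without Control mouse 1 to 0.57 without Control mouse 2, so that these mice decide its size. No gene passed the edgeR test, 2 were higher and 0 lower at an unadjusted p under 0.05, and DESeq2 called 1. Of all tested genes, 7.70% were higher and 9.17% lower at that p, and DESeq2 called 1.30% of its genes higher. The gene it called in this list was Mt1, a metallothionein that binds metal ions, with 103.7, 199.5 and 118.6 CPM in the M1 mice and 57.9, 80.4 and 79.7 CPM in the Control mice (log2 fold change 0.95, adjusted p of 0.201 by edgeR and 0.0299 by DESeq2). The other gene under that p was Prlr, the prolactin receptor, with 2530, 1794 and 1846 CPM in the M1 mice and 1377, 1527 and 1169 CPM in the Control mice (log2 fold change 0.60, edgeR adjusted p of 0.244). In both, all M1 mice were above all Control mice, as in 11.4% of all tested genes. Mt2 and Rgcc had log2 fold changes of 1.06 and 0.70 with overlapping groups. Cyp11a1, which makes pregnenolone from cholesterol, had 9258, 10900 and 5280 CPM in the M1 mice, against 3535, 11300 and 7318 CPM in the Control mice, where the spread within a group was wider than the difference. The luteal markers Ptgfr, Parm1, Akr1c18 and Lhcgr summed to 2643 to 8652 CPM in the M1 mice and 2040 to 5956 CPM in the Control mice. Of these, Akr1c18 alone had 393.8, 5939 and 378.9 CPM in the M1 mice, against 3.08, 2394 and 1125 CPM in the Control mice. The 8 granulosa markers summed to 2243 to 4153 CPM in the M1 mice and 2458 to 3617 CPM in the Control mice. The part of either cell type in the Runx2 values was not tested.

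**Figure D5:**
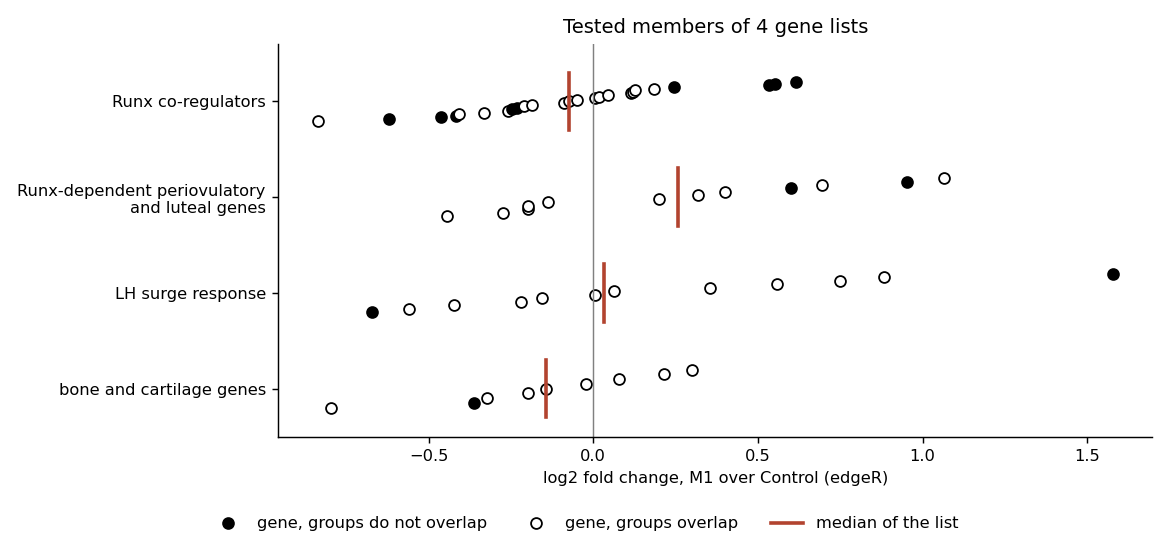
edgeR log2 fold changes of M1 over Control (x axis) for the tested genes of 4 lists (rows), filled where the M1 and Control mice do not overlap in CPM and open where they do, with the list median as a vertical bar. The co-regulators (median -0.074) spread to both sides of 0, and the Runx-dependent genes have a median of 0.26.

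Runx1 and Runx2 are known as genes that follow the LH surge, so other genes of that response were described beside them. Of 18 genes, 12 were tested. Ptgs2, Areg, Has2, Snap25 and Il6, all known to be strongly induced in preovulatory follicles, were each under 1 CPM in every library of both groups, and Sult1e1 had 0 counts. Pgr, the progesterone receptor, was at 1.43, 1.54 and 1.34 CPM in the M1 mice, against 2.25, 2.75 and 1.90 CPM in the Control mice (log2 fold change -0.67, edgeR adjusted p of 0.318). Ereg, Btc, Tnfaip6, Edn2 and Ptx3 were tested but also low, with at most 4.74 CPM in any library of either group. The remaining genes of the list were better covered in both groups. Star, which carries cholesterol into mitochondria, had 1427, 4982 and 1990 CPM in the M1 mice, against 699, 4407 and 4242 CPM in the Control mice, and Rgs2, a regulator of G-protein signalling, had 247.0, 135.6 and 354.5 CPM in the M1 mice, against 432.1, 218.5 and 208.5 CPM in the Control mice. Adamts1, Cebpb and Lyve1 had log2 fold changes of -0.56, 0.75 and 0.35, and the groups of these 5 genes overlapped. The median log2 fold change of the tested genes was 0.034, and it was -0.23 without M1 mouse 1. Cited1, a transcriptional co-regulator, was the one that DESeq2 called, where it called 1.30% of all its genes higher. Cited1 had 60.0, 44.8 and 86.1 CPM in the M1 mice and 28.2, 22.0 and 13.9 CPM in the Control mice. Its log2 fold change was 1.58, with an adjusted p of 0.195 by edgeR and 0.000293 by DESeq2. Groups did not overlap for 1 of the 12 genes that was higher in M1 and 1 that was lower, beside 11.4% and 11.2% of all tested genes.

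Of 14 bone and cartilage genes that Runx2 is known to drive in the skeleton, 5 (Bglap, Bglap2, Ibsp, Sp7 and Col10a1) were under the filter and 9 were tested. The tested genes had a median log2 fold change of -0.14, with 3 positive and 6 negative, and the median was 0.052 without Control mouse 2. Spp1, which encodes osteopontin and is also made by other cells, had 56.2, 53.5 and 18.5 CPM in the M1 mice, against 6.90, 176.6 and 39.6 CPM in the Control mice. Control mouse 1 was the lowest and Control mouse 2 the highest, which is the order Runx3 had as well. Col1a2, a collagen chain, was the one gene of the 9 whose groups did not overlap, where 11.2% of all tested genes had all M1 mice below. It had 749.4, 863.1 and 822.4 CPM in the M1 mice and 963.5, 1110 and 1059 CPM in the Control mice (log2 fold change -0.36, edgeR adjusted p of 0.281). Markers of osteoblasts and chondrocytes summed to 1.49 to 3.71 CPM in the M1 mice and 1.37 to 3.06 CPM in the Control mice. Mast cell markers, looked at because blood cells carry Runx1, reached at most 0.683 CPM in sum, with Mcpt4 at 0. Markers of macrophages summed to 32.1 to 45.7 CPM in the M1 mice and 24.4 to 68.2 CPM in the Control mice, and the highest sum was in Control mouse 3, which also had the most Runx1 and Cbfb. The part of these cells in the Runx1 and Cbfb values was not tested.

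The genes whose levels went most like each member over the 6 libraries were ranked by Pearson's r of log2 CPM among 15969 genes, as a description over 6 points that share the difference between groups. For Runx2os1 these were Caml (r of 0.999), Gm43201, Npdc1, Gm43088 and Gm44005, and Runx2 came at rank 2423 with an r of 0.741. Caml had 59.4, 55.6 and 59.8 CPM in the M1 mice, against 52.0, 41.9 and 43.7 CPM in the Control mice, with Control mouse 1 between the others as in Runx2os1. For Runx2 they were Gskip, Cox7b, Serpina1b, Fbxo4 and Gm45902. For Runx1 they were Fosl2 (0.996), Gusb, Fcho1, Tars and Ephb2. Fosl2, an AP-1 factor, had 393.5, 679.9 and 499.5 CPM in the M1 mice, against 384.3, 590.7 and 791.7 CPM in the Control mice, so that both genes were lowest in Control mouse 1 and highest in Control mouse 3. For Runx3 they were Capn1 (0.999), Slc22a5, Ripor1, Cap1 and Spp1, and for Cbfb they were Wdr82, Tvp23a, Rnf2, Pxylp1 and Pcgf3. With so many genes and 6 points, values of r this high are found for each member.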

How the data were processed

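Ovarian polyA RNA was sequenced from 3 M1 and 3 Control mice (KAPA mRNA HyperPrep), grouped by the sample labels. Per the submitters' notes the reads were checked with FastQC and MultiQC, trimmed with Trimmomatic 0.38, aligned with HISAT2 2.1.0 to GRCm38 and counted with featureCounts 2.0.0. The strand setting and the annotation are not given in the sources used here. The deposited counts are whole numbers with no normalization, 12536440 to 18651402 per library. The deposited TPM were made by the authors from counts and gene lengths, and the deposited FPKM from the same, used here only to recover those lengths, which equalled the GENCODE vM21 exon union within 1 base for 100% of 33353 genes with a count.

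Counts were tested with edgeR 4.0.16 in R 4.3.3 (TMM, filterByExpr with a minimum count of 10, quasi-likelihood test, Benjamini-Hochberg over 17499 genes), with DESeq2 1.42.0 and limma 3.58.1 as alternatives. The common biological coefficient of variation was 0.257. CPM are scaled to TMM library sizes. Ratios used TPM plus 0.1 and an exact permutation test over mice (scipy 1.17.1). The edgeR fit was tested on simulated data. Mice were caged by group, so cage and treatment cannot be told apart, and p-values measure the spread between these libraries.

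The members and gene lists were chosen with earlier results of these data known. Named were the 5 members, genes overlapping them, neighbours of at least 1 CPM, up to 5 genes per list by smallest p, markers near 0 or without overlap, and the 5 genes most like each member. Not every gene the rule allows is named, and some list members outside it were chosen after their values were seen. Among these are the other Tle genes, Hipk2, Cyp11a1, further genes of the LH surge list and the genes under the filter. The results were recomputed with DESeq2, limma-voom, RLE size factors, other filters, a replicate block, a gene length offset and log2(TPM + 1), and with each library left out. The density on exon 2 and the fits of lists without single libraries were added after seeing the data. Sequences are from GENCODE's genome GRCm38 and RefSeq's promoter windows, where Runx1, Runx2, Runx3 and Cbfb matched and Runx2os1 has no entry.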

Additional observations from a re-analysis of the deposited data

How the results depend on the processing

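Runx2 and Cbfb kept their direction and stayed above the adjusted p threshold under all 15 alternatives. Their log2 fold changes ran from 0.38 to 0.61 and from -0.42 to -0.13 when 1 mouse was left out. The sign of Runx1 turned with the gene length offset (0.033) and with the block and that offset together (0.036), and ran from -0.33 to 0.041 when 1 mouse was left out. The sign of Runx3 turned with limma-voom (0.27), at least 10 counts in every library (0.0024), the replicate block (0.19), the gene length offset (0.062), the block with that offset (0.26) and log2(TPM + 1) (0.044), and ran from -0.44 to 0.80 when 1 mouse was left out. Runx2os1 ran from 1.18 to 1.92. The 3 ratios kept their direction in all 8 settings run for them. The count of genes that edgeR called was 1. It was 155 with no filter beyond 1 count and 0 to 782 when 1 mouse was left out, the highest without Control mouse 1, and DESeq2 called 426. The cause of these changes was not tested. Deviations of same-numbered mice had correlations of 0.067, 0.11 and -0.26, and those of the other pairs ran from -0.347 to 0.345. These values cannot show whether same-numbered mice were handled together, and the main fit used no pairing. With the replicate block edgeR called 0 genes, also with the gene length offset, and Runx2 was at 0.50. At 62 to 278 counts, Runx2os1 is limited more by the spread between mice than by depth.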
